A study of Homo sapiens with 10 samples.

Results

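U937 cells that had been cross-linked through CD64 for 6 h were compared with U937 cells that had been cross-linked through CD32 for the same time. U937 is an established human monocytic cell line, and all the cells had been differentiated with interferon gamma, also those of the control. The comparison rests on 4 of the 10 arrays of the series, chosen by their titles: 2 for CD64 at 6 h and 2 for CD32 at 6 h. The second array of each group was titled a duplicate without a word on its culture, and p-values therefore cover the spread between arrays, which may be technical. The CD64 and CD32 arrays at 2 h, 2 of each, entered the same fit and gave the earlier receptor difference, with the title followed for a CD32 2 h array whose source name read otherwise. The control arrays, for which no cross-linking and no time was listed, entered no test. The antibodies used to cross-link, and which of the CD32 proteins they bound, were not given in the sources used here. In a culture, more or fewer cells that express a gene and more or less of its RNA per cell cannot be told apart.

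CD64 and CD32 are Fc gamma receptors, which bind the constant part of IgG antibodies on the surface of monocytes and macrophages. CD64 binds single IgG molecules with high affinity and signals through an associated chain, FCER1G, whereas the CD32 receptors bind IgG in complexes and carry their signalling motif, activating or inhibitory, in their own tail. Cross-linking either activating receptor engages SRC and SYK family kinases, and in monocytes this is known to lead to MAP kinase and NF-kappaB signalling, to cytokine and chemokine secretion and to phagocytosis. Interferon gamma is known to raise CD64 on these cells.

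Signals were linear intensities of 1 value per probe set, scaled to a mean of 500.5 to 500.6 per array once 2% of probe sets were trimmed at each end. Signals under a floor of 36.8, the percentile 25 of the 8 cross-linked arrays, were set to it before log2 was taken. A gene was called higher or lower in CD64 where limma gave an adjusted p under 0.05, and errors of log2 differences are standard errors (SE) of that fit. Of 6169 genes tested, 1343 were called, or 21.8%: 764 were higher in CD64 (12.4%) and 579 were lower (9.39%). Over the 6962 probe sets behind them the shares were 22.3%, 12.6% and 9.67%. After quantile normalization 1201 genes were called (19.7%), 603 higher (9.91%) and 598 lower (9.83%). After cyclic loess normalization 1208 were called (19.9%), 581 higher (9.55%) and 627 lower (10.3%). Called in the same direction as deposited and after both were 969 genes (15.7%), 514 higher (8.33%) and 455 lower (7.38%). Of all probe sets called, 56.6% were higher as deposited, 51.4% after quantile and 48.6% after loess normalization, and 36.6% after centring each array on its median. The arrays of both receptors did not overlap for 3626 genes, or 58.8%.

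The groups also differed in array measures other than the levels of single genes. The 9 probe sets for added bacterial and phage transcripts averaged a log2 signal of 12.20 and 12.01 on the CD32 arrays at 6 h and 9.06 and 9.0 on the CD64 arrays. Actin probe sets at the 3' end exceeded those at the 5' end 2.01-fold and 1.97-fold on the CD32 arrays and 1.16-fold and 1.08-fold on the CD64 arrays. The brightest probe set read 36977.6 and 37994.5 on the CD32 arrays and 14536.1 and 15867.5 on the CD64 arrays, so the highest signals lay lower in CD64. In the brightest 10% of genes the median difference was -0.13 as deposited, with 79 genes higher and 212 lower, and 0.05 after loess normalization. The part of these measures in the results was not tested. Across probe sets, duplicates correlated at 0.968 (CD32) and 0.975 (CD64), and arrays of different receptors at 0.938 to 0.952.

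**Figure D1:**
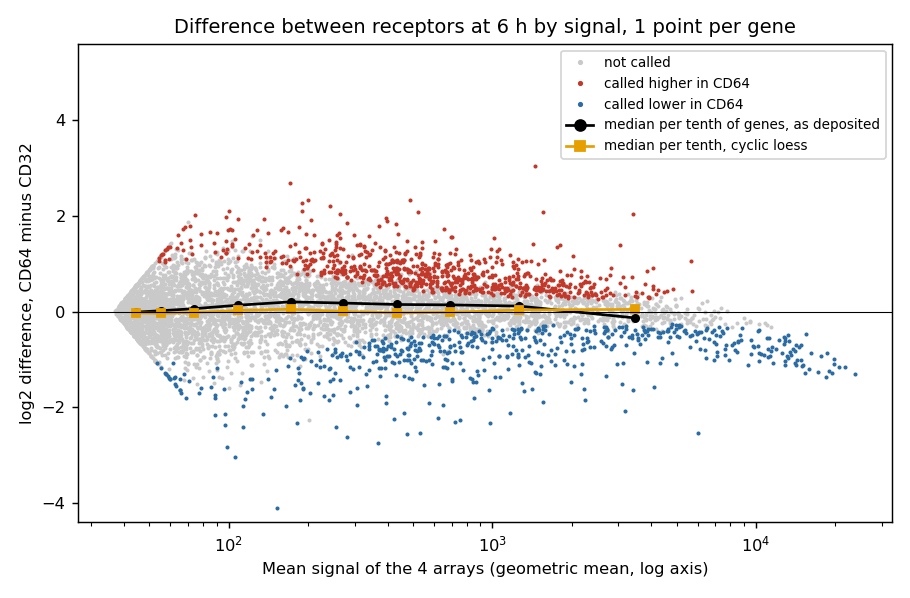
The plot gives, for each of the 6169 genes tested, the log2 difference between CD64 and CD32 at 6 h (vertical axis) against the geometric mean signal of the 4 arrays (horizontal log axis), with called genes in colour and the median of each 10% of genes as lines. Among the brightest genes the deposited values bend below 0, where 79 genes of the brightest 10% were called higher and 212 lower, and the loess median stays near 0.

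All 20 monocyte and macrophage markers measured had a mean above the floor. Their summed signal was 36720.9 and 35996 on the CD32 arrays and 26869.8 and 29144.9 on the CD64 arrays. A mean above the floor does not set these markers apart. It was also found for 8 of 13 T cell, 4 of 10 B and plasma cell and 9 of 13 natural killer cell markers. The same held for 7 of 10 erythroid and platelet and 6 of 14 epithelial and fibroblast markers. Some of the monocyte markers were dim. CD14, the endotoxin co-receptor of blood monocytes, read 54.4 and 18.4 in CD32 and 128.6 and 71.9 in CD64. AIF1 read 51.6 and 73.1 in CD32 and 49.6 and 71.6 in CD64. Markers of T cells (13 on the array), B and plasma cells (10), natural killer cells (13), erythroid cells and platelets (10) and epithelial cells and fibroblasts (14) gave 0 calls as deposited, and 1 erythroid or platelet marker was lower after each of the 3 other scalings. At an unadjusted limma p under 0.05, 3 of the 39 markers tested from these 5 lists were higher and 1 lower. The brightest of them was the granule protein gene NKG7, with a mean of 2104, and the others with a listed highest gene lay at 91.5 (KRT18) to 220 (HBB).

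Of the 12 genes most in favour of CD64, 4 were antiviral (IFIT1, RIGI, IFIT5 and IFIT3) and the others of other kinds. IFIT1, which binds viral RNA lacking a normal cap, read 459 and 546 on the CD32 arrays and 4416 and 3934 on the CD64 arrays. The arrays of each receptor lay close together and far from those of the other, and IFIT1 was 8.33-fold higher in CD64 (log2 difference 3.06 ± 0.171 SE, adjusted p = 2.53e-06). RIGI, the cytosolic sensor of viral RNA also known as RIG-I, read 238 and 197 in CD32 and 1143 and 1046 in CD64, or 5.05-fold higher (2.33 ± 0.335, adjusted p = 0.000704). CASP6, an executioner caspase, went from 103 and 72.5 in CD32 to 436 and 400.4 in CD64 (4.84-fold, adjusted p = 0.000281). KIF5B, the heavy chain of the microtubule motor kinesin-1, read 240.1 and 270.2 in CD32 and 1126 and 1028 in CD64, and TPR, a nuclear pore protein, 138 and 124 in CD32 and 411 and 699 in CD64. They were 4.22-fold (adjusted p = 4.22e-06) and 4.1-fold (adjusted p = 0.000629) higher in CD64.

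Other genes at the top rested on unequal CD32 arrays. FFAR2, a receptor for short-chain fatty acids, read 123 and 24.9 in CD32 and 473 and 398 in CD64, and its fold of 6.45 depends on the floor, since the second CD32 array lay under it; its log2 difference was 2.69, and 1.82 to 3.57 with 1 array left out. The calcium-dependent kinase kinase CAMKK2 read 166 and 47.1 in CD32 and 372 and 545 in CD64 (log2 2.35 ± 0.467). The chromatin protein gene HP1BP3 read 216 and 38.3 in CD32 and 478 and 325 in CD64 (2.12 ± 0.623). The channel gene PKD2L1 read 62.9 and 27.7 in CD32 and 215 and 199.8 in CD64, again with 1 array under the floor. In all 4 genes the second CD32 array was the lower one; that the groups did not overlap was a condition of the choice of these genes. CAMKK2 was not called without the second CD64 array (adjusted p = 0.0536), and its difference ranged from 1.44 to 3.26 with 1 array left out. The call of HP1BP3 was lost when any of 3 arrays was left out, all but the first CD32 array, with its difference at 0.87 without the second CD32 array and 3.36 without the first.

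**Figure D2:**
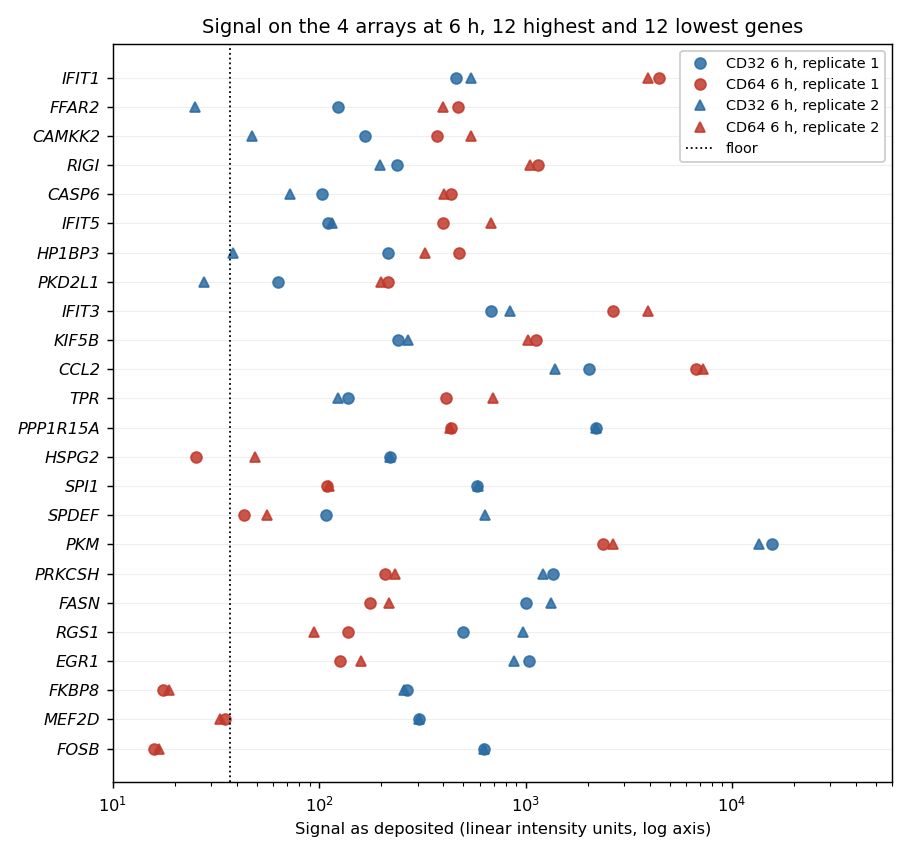
Each row is a gene and each point the deposited signal (log axis) on 1 of the 4 arrays at 6 h, for the 12 genes most in favour of CD64 and the 12 most in favour of CD32 by the rule for named genes; the dotted line is the floor of 36.8. IFIT1 reads 459 and 546 in CD32 and 4416 and 3934 in CD64, while FOSB reads 631 and 628 in CD32 and lies under the floor on both CD64 arrays.

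Toward CD32, the largest difference was that of an early response gene. FOSB, a partner in the AP-1 transcription factor, read 631 and 628 on the CD32 arrays and 15.9 and 16.8 on the CD64 arrays. It was called lower in CD64, at least 17.1-fold. FOSB was tested only because its CD32 arrays lay above the floor, and both CD64 arrays were set to the floor. Its p-value and SE therefore miss the spread of the CD64 arrays and are not given. The control arrays, at 15 and 5.3, lay under the floor too. EGR1, a zinc finger transcription factor of the early growth response, read 1038 and 878 in CD32 and 127 and 159 in CD64, a 6.73-fold lower signal (-2.75 ± 0.276, adjusted p = 8.41e-05). MEF2D, a MADS box transcription factor, read 306 and 303 in CD32 and 35.1 and 32.9 in CD64 (at least 8.27-fold lower), and FKBP8, an anti-apoptotic immunophilin, read 268 and 258 in CD32 and 17.4 and 18.6 in CD64 (at least 7.14-fold lower). Both CD32 arrays were close to each other in each of these genes. MEF2D and FKBP8 too were tested only through their CD32 arrays, with both CD64 arrays set to the floor.

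SPI1, which encodes PU.1, the transcription factor that defines the myeloid lineage, read 579.6 and 589 on the CD32 arrays and 109.6 and 111 on the CD64 arrays. The duplicates were nearly equal, and SPI1 was 5.29-fold lower in CD64 (adjusted p = 8.45e-05). PPP1R15A, the stress-induced phosphatase subunit GADD34, read 2204 and 2185 in CD32 and 437 and 433 in CD64, a 5.05-fold difference with as little spread (-2.34 ± 0.125, adjusted p = 2.41e-06). PRKCSH, the beta subunit of the glucosidase that trims sugars from new glycoproteins, read 1359 and 1210 in CD32 and 208 and 234 in CD64, or 5.82-fold lower in CD64. HSPG2, the basement membrane proteoglycan perlecan, read 221 and 221 in CD32 and 25.3 and 49.1 in CD64, with 1 CD64 array under the floor. The ETS factor SPDEF read 108 and 636 in CD32 and 43.2 and 56.1 in CD64; its CD32 arrays lay far apart, and its call was lost when any of 3 arrays was left out (differences of -1.13 to -3.69).

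The receptors and their own chain gave no call between the groups as deposited. Their intervals cover the spread between arrays under that scaling alone. FCGR2A, an activating CD32 receptor, read 737 and 663 in CD32 and 677 and 601 in CD64, with a 95% interval of the difference from -0.43 to 0.17. FCGR2B, the inhibitory CD32 receptor, read 900.1 and 772 in CD32 and 1016 and 939 in CD64 (interval -0.05 to 0.50). The signalling chain FCER1G read 4342 and 3941 in CD32 and 3683 and 3928 in CD64 (interval -0.32 to 0.08). The CD16 gene FCGR3B, at 143 and 110.4 in CD32 and 118 and 58.8 in CD64, had the widest interval, -1.56 to 0.38. FCGRT, the neonatal Fc receptor that recycles IgG, read 895 and 814 in CD32 and 706 and 609 in CD64. Its log2 difference was -0.38 ± 0.158 (adjusted p = 0.113), with an interval of -0.73 to -0.03 that leaves out 0. FCGRT was called lower after quantile and loess normalization (-0.51 and -0.55) and after median centring. Thus 0 of 5 receptor genes were called as deposited, with 1 lower at an unadjusted limma p under 0.05. The gene of CD64 itself, FCGR1A, was on a probe set that carries several gene symbols, and no value is given for it.

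Below the receptors, 4 of 41 kinases, phosphatases and adaptors were higher in CD64 and 7 lower. These shares were 9.76% and 17.1%, against 12.4% and 9.39% of all genes, and the count after median centring was 0 and 8. The lower genes included inhibitory phosphatases. PTPN6, the tyrosine phosphatase SHP-1 that acts at inhibitory receptor motifs, read 2326 and 2174 in CD32 and 986 and 901 in CD64, or 2.39-fold lower (-1.25 ± 0.0965, adjusted p = 1.77e-05). INPPL1, the inositol phosphatase SHIP2, read 644 and 451 in CD32 and 286 and 271 in CD64 (-0.95 ± 0.203), a call lost without the first CD32 or the second CD64 array. VAV3, a signalling protein of immune receptors, was higher in CD64, at 526 and 356 against 212 and 249.6, but its call was lost after loess normalization (adjusted p = 0.0592), after median centring and when any of 3 arrays was left out. The kinases SYK and LYN, which start the signal, were not called, at log2 0.02 ± 0.291 and -0.63 ± 0.223. The counts of this list were 1 and 3 without the first CD32 array, 3 and 3 without the first CD64 array and 1 and 4 without the second.

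Type I interferon-stimulated genes, which encode antiviral effectors and sensors, were called higher in CD64 in 13 of 41 (31.7%, against 12.4% of all genes tested) and lower in 3 (7.32%, against 9.39%). The counts were 13 and 2 after quantile, 12 and 3 after loess normalization and 12 and 5 after median centring, and the median of the list was 0.26 as deposited against 0.08 for all genes. Leaving out 1 array lowered the higher count to 10 (first CD32 array), 8 (second CD32 array), 7 (first CD64 array) and 8 (second CD64 array), and the lower count was 1 without the second CD32 or the first CD64 array. The cluster of IFIT genes led the list. IFIT3 read 682 and 838 in CD32 and 2645 and 3918 in CD64 (4.26-fold, adjusted p = 7.45e-05), and IFIT5 109.7 and 115 in CD32 and 396 and 683 in CD64 (4.63-fold, adjusted p = 0.00257). IFIT5 varied more between its CD64 arrays than IFIT1 and IFIT3. The receptors did not overlap for IFIT3 or IFIT5, as was so for 58.8% of all genes tested. The ubiquitin-like modifier ISG15 was brighter still, at 3889 and 3975 in CD32 and 7342 and 9241 in CD64 (log2 1.07 ± 0.132), with a larger difference after quantile normalization (1.45).

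Not all of these genes went that way. The membrane proteins IFITM1 and IFITM3, which block virus entry, were lower in CD64. IFITM3 read 3301 and 3624 in CD32 and 1924 and 2325 in CD64 (-0.71 ± 0.159, adjusted p = 0.0089), while the call of IFITM1 (-0.51) was lost after quantile normalization (-0.13, adjusted p = 0.353). The GTPase MX1, a classical target of type I interferon, was not called, at 227 and 155 in CD32 and 178 and 156 in CD64. These 3 genes were picked out after their values were seen.

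Promoter sequences were taken from RefSeq (assembly GRCh38.p14) to show what the interferon-stimulated genes of both directions share upstream. The pattern searched was GAAA, any 2 bases and GAAA, the core of the interferon-stimulated response element, on both strands within 250 bases before the first listed start of a gene. It was present for 3.073% of 27305 promoters, 26 of 647 genes higher in CD64, 20 of 484 lower and 107 of 3946 not called. Among interferon-stimulated genes it was present for 6 of 11 higher, 2 of 3 lower and 12 of 19 not called. The promoters below have 100 bases each, written 5' to 3' on the strand of the gene, with matches in capitals; where a match starts with TTTC it lies on the other strand, and overlapping matches in ISG15 form 1 run. IFIT1 (chr10:89392468-89392567, plus strand), IFIT3 (chr10:89327813-89327912, plus) and ISG15 (chr1:1013342-1013441, plus) were higher in CD64. IFITM3 (chr11:320861-320960, minus) was lower. The chemokine gene CXCL10 (chr4:76023648-76023747, minus) was lower as deposited and not after quantile normalization.
IFIT1: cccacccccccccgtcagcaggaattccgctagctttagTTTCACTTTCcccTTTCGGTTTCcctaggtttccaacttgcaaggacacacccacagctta
IFIT3: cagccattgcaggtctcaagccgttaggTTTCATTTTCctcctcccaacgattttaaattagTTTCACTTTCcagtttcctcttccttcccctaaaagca
ISG15: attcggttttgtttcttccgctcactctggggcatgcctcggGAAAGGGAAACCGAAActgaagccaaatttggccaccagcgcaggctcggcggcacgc
CXCL10: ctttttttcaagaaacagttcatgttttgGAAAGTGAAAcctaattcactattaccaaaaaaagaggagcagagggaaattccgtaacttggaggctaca
IFITM3: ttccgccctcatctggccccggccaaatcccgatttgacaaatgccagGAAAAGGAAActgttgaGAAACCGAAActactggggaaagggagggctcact
IFIT1, IFIT3, ISG15 and IFITM3 each held 2 matches and CXCL10 held 1, so a match was present in genes that were higher and in genes that were lower in CD64. A match describes the letters only and is not a measured binding site.

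Among regulators of the interferon response, IRF1, a transcription factor that interferon gamma induces, read 728 and 797 in CD32 and 339 and 341 in CD64 and was 2.24-fold lower (-1.16 ± 0.173, adjusted p = 0.000878). IRF3, which drives type I interferon genes after viral sensing, was lower too, at 302 and 346 against 455 and 666, a call lost when any of 3 arrays was left out. Of 8 interferon regulatory factors 2 were lower and 0 higher (25% and 0%, against 9.39% and 12.4% of all genes). In the JAK, STAT and SOCS list 4 of 22 were higher and 1 lower (18.2% and 4.55%). The higher count dropped to 1 after median centring, and it also fell without each single array. SOCS2, a feedback inhibitor of cytokine receptors, read 151 and 144 in CD32 and 486 and 584 in CD64 (3.61-fold higher, adjusted p = 0.000148). SOCS1 read 63.9 and 57.7 in CD32 and 133 and 168 in CD64, and its call was lost after loess normalization (adjusted p = 0.0512), after median centring and when any of the 4 arrays was left out. STAT6, the mediator of interleukin-4 signals, was lower in CD64 (-0.62 ± 0.122).

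CCL2, CCL7 and CCL4, chemokines of the CC family that attract monocytes, were higher in CD64 and CCL5, of the same family, was lower, while CXCL9, CXCL10 and CXCL11, which interferon gamma induces, did not move together. CCL2 (MCP-1) read 2040 and 1387 on the CD32 arrays and 6684 and 7226 on the CD64 arrays, 4.13-fold higher (2.05 ± 0.152, adjusted p = 1.52e-05). Its relative CCL7 (MCP-3), far dimmer, read 104 and 73.9 in CD32 and 299.5 and 289.6 in CD64 (3.35-fold, adjusted p = 0.00489), and CCL4 (MIP-1 beta) 476 and 348 in CD32 and 1276 and 1149 in CD64 (2.98-fold, adjusted p = 0.00176). None of the 3 overlapped between receptors, as was so for 58.8% of all genes tested. CXCL9 read 9008 and 7917 in CD32 and 4753 and 4912 in CD64 and was lower under each scaling tried (-0.81 as deposited, -0.51 after quantile and -0.54 after loess normalization). CXCL10, at 19194 and 18466 in CD32 and 11075 and 11364 in CD64 among the brightest genes, was lower as deposited (-0.75) and turned to 0.11 after quantile normalization (adjusted p = 0.416). CXCL11, from the same family, was higher (0.87 ± 0.239), a call lost after loess normalization (adjusted p = 0.066). CCL5 (RANTES) read 3375 and 2806 in CD32 and 2309.6 and 2239 in CD64 (-0.44, adjusted p = 0.0122), and CCL8 (MCP-2) was not called (1.05, adjusted p = 0.115). In all, 4 of 23 chemokines were higher and 3 lower (17.4% and 13%, against 12.4% and 9.39% of all genes). CCL5, CCL8, CXCL9, CXCL10 and CXCL11 were picked out after their values were seen.

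Of 23 cytokines 3 were higher and 3 lower in CD64 (13% each), near the 12.4% and 9.39% of all genes. Fewer were higher without each single array, and fewer were lower without the second CD32 array or either CD64 array. TNFSF10 (TRAIL), a death ligand that interferons induce, read 896 and 846 in CD32 and 2273 and 2388 in CD64 and was 2.68-fold higher (1.42 ± 0.112, adjusted p = 2.1e-05). The interleukin-1 receptor antagonist gene IL1RN was higher as well, at 2662 and 3231 against 1209.8 and 1028. TNF, the tumour necrosis factor gene, was dim, at 164 and 101 in CD32 and 8.2 and 30.8 in CD64. It was called lower, at least 3.48-fold. Both CD64 arrays were set to the floor and TNF was tested only through its CD32 arrays, so no p-value is given. That call was lost without either CD64 array, and without either CD32 array TNF passed no filter and was not tested. HBEGF, a ligand of the EGF receptor, was lower (-1.49 ± 0.485, adjusted p = 0.0493) a call lost when any of the 4 arrays was left out. Of the interleukins, IL1B was not called (-0.33 ± 0.141, adjusted p = 0.126).

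Targets of NF-kappaB, the transcription factor behind much of the inflammatory response, were called lower in CD64 more often than higher. Of 25 genes, subunits and inhibitors included, 10 were lower and 3 higher (40% and 12%, against 9.39% and 12.4% of all genes) around a median of -0.10, with 10 lower under each of the 3 other scalings. IER3, an early response gene that limits apoptosis, read 1519.8 and 1667 in CD32 and 452 and 467 in CD64 (3.47-fold lower, -1.79 ± 0.128, adjusted p = 1.14e-05). PTX3, a secreted pattern recognition molecule, went the other way, with 217 and 242 in CD32 and 848 and 781 in CD64 (3.55-fold higher, adjusted p = 8.19e-05). TNFAIP6, which binds hyaluronan and restrains neutrophil migration, was higher in CD64 too, at 1196 and 1202 against 466 and 355 (2.95-fold, adjusted p = 0.000507). The third higher gene was BIRC2, an inhibitor of apoptosis (0.51), and the 10 lower genes included the subunits RELA and RELB and the inhibitors NFKBIA and TNFAIP3.

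**Figure D3:**
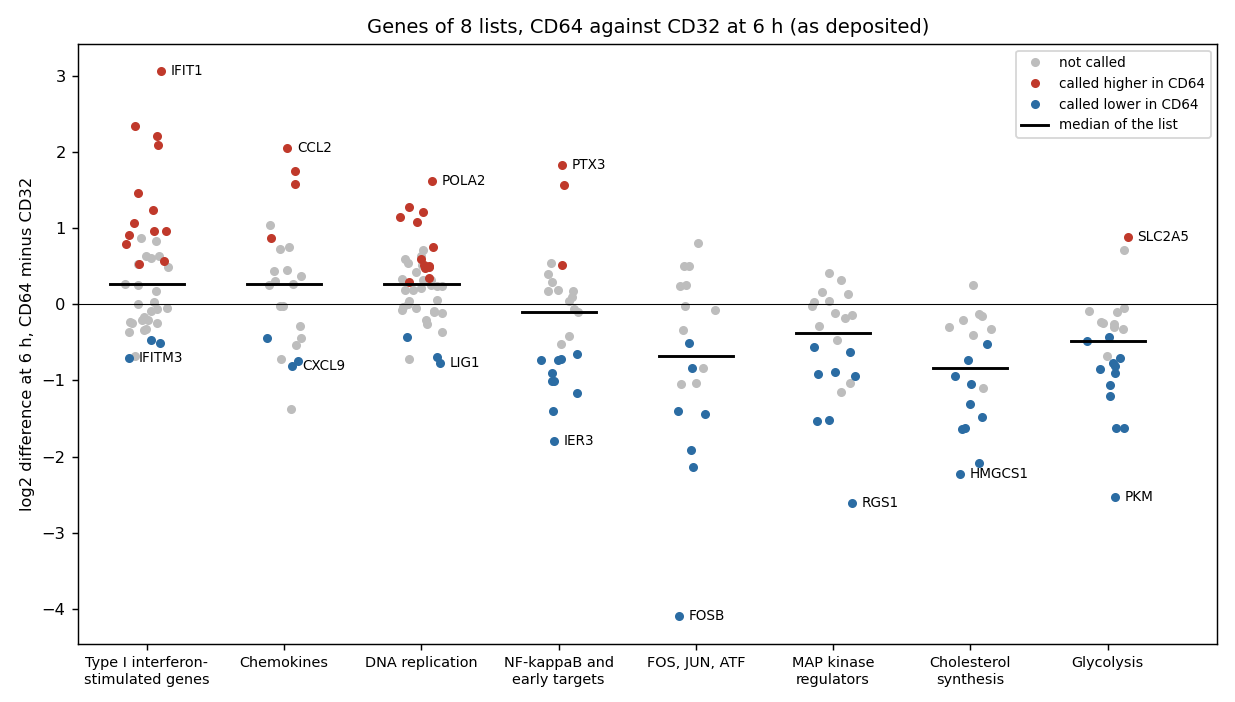
Each point is a gene of 1 of 8 lists and its height the log2 difference between CD64 and CD32 at 6 h as deposited; colours mark calls, bars mark the median of each list, and the most extreme called genes are named. The interferon-stimulated, chemokine and DNA replication lists reach upward (IFIT1 3.06, CCL2 2.05, POLA2 1.61), while FOS, JUN and ATF, MAP kinase regulators and cholesterol synthesis have no called gene above 0.

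Early response genes, and the MAP kinase feedback genes that accompany them, held many more genes lower than higher in CD64. In the FOS, JUN and ATF family 7 of 18 were lower and 0 higher (38.9% and 0%, against 9.39% and 12.4% of all genes). After quantile, loess and median scaling 8, 9 and 8 were lower. JUNB read 687 and 847 in CD32 and 169 and 245 in CD64 (3.75-fold lower, adjusted p = 0.00152). FOSL1 read 241 and 169.9 in CD32 and 17.4 and 58.1 in CD64, with 1 CD64 array under the floor, so that its fold of 4.38 depends on the floor. The nuclear receptor NR4A2 read 382 and 348 in CD32 and 112 and 151 in CD64 (2.81-fold lower, adjusted p = 0.00277). Fewer genes of its list, a second one of 29 early genes, were lower without the second CD32 array or either CD64 array. With all arrays 8 of these 29 were lower and 2 higher (27.6% and 6.9%, against 9.39% and 12.4% of all genes). Of those 2, MYC, the growth-promoting transcription factor, read 346 and 329 in CD32 and 657 and 606 in CD64 (0.90 ± 0.152, adjusted p = 0.00192), both under its control level of 1788 and 2059.

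Of 22 MAP kinase phosphatases and regulators 8 were lower in CD64 and 0 higher (36.4% and 0%, against 9.39% and 12.4% of all genes). The count of 8 was the same after quantile, loess and median scaling. RGS1, which switches off G protein signals from chemokine receptors, read 496 and 975 in CD32 and 138 and 94 in CD64 (6.11-fold lower, adjusted p = 0.00228). DUSP1, the phosphatase that inactivates p38 and JNK, read 347 and 264 in CD32 and 98.3 and 111 in CD64 (2.9-fold lower). SPRY2, an inhibitor of receptor tyrosine kinase signals, read 1009 and 1105 in CD32 and 433 and 316 in CD64 (2.85-fold lower, adjusted p = 0.000421). No array of one receptor overlapped with the other in these 3 genes, as was so for 58.8% of all genes tested. RGS1 had the wider spread between its CD32 arrays.

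The EGR1 promoter is shown because it holds the CArG box, the letters CC, 6 of A or T, and GG, to which the serum response factor SRF is known to bind. The 100 bases (GRCh38.p14, RefSeq, chr5:138465340-138465439, plus strand) contain 2 such boxes, in capitals.
EGR1: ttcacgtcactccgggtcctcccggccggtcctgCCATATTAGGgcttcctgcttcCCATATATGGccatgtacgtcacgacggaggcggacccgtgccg
A CArG box was present within 250 bases of the start for 1.143% of all 27305 promoters, 10 of 647 genes higher in CD64, 16 of 484 lower and 51 of 3946 not called. Of 11 early genes that were lower and had a promoter listed, 2 held one, EGR1 and SRF itself.

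Several genes of antigen presentation and myeloid identity were lower in CD64, while of 14 class II genes 2 were higher and 2 lower (14.3% each), near the shares over all genes. CD74, the invariant chain that guides class II molecules, read 4449.8 and 4031 in CD32 and 1129 and 1243 in CD64 (3.58-fold lower, -1.84 ± 0.101, adjusted p = 2.41e-06). HLA-DRA, a class II chain that CD74 accompanies, was slightly higher, at 2774 and 3197 against 2229.8 and 2233 (0.42 ± 0.11, adjusted p = 0.0205), a call lost after median centring and when any of 3 arrays was left out. In the class I list 9 of 15 were lower and 0 higher (60% and 0%, against 9.39% and 12.4% of all genes). After quantile and loess normalization 7 were lower, and fewer than 9 were lower without each single array. TAPBP, which loads peptides on class I, read 4804 and 3847 in CD32 and 1609 and 1764 in CD64 (2.55-fold lower), with -1.33 after quantile normalization. B2M, the class I light chain and one of the brightest genes, read 24066 and 23636 in CD32 and 9867 and 9828 in CD64, and its difference shrank from -1.28 as deposited to -0.41 after quantile and -0.75 after loess normalization.

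CD4, which monocytes carry as well as T cells, read 2474 and 2396 on the CD32 arrays and 553 and 571 on the CD64 arrays, 4.34-fold lower (-2.12 ± 0.126, adjusted p = 3.23e-06). Of the 20 monocyte markers 7 were lower, SPI1, CD4 and CD74 most, and 2 higher (35% and 10%, against 9.39% and 12.4% of all genes). After median centring 7 were lower and 0 higher. Integrins and adhesion genes had 7 of 17 lower and 1 higher under each of the 4 scalings (41.2% and 5.88%, against the same shares as deposited). ZYX, which links adhesions to actin, read 1757 and 1465 in CD32 and 314 and 339 in CD64 (4.92-fold lower, adjusted p = 2.61e-05), TLN1, the integrin activator talin, 374 and 334 in CD32 and 135 and 71.5 in CD64 (not called without the second CD64 array), and ITGAL, the LFA-1 alpha chain, 1065 and 826 in CD32 and 362 and 288 in CD64. Its counter-receptor ICAM1 was lower too (-1.01 ± 0.107), as were the cytokine receptor chains IL2RG (-1.09) and IL4R (-1.02). The aspartic protease CTSD led the lysosomal list, with 1542 and 1748 in CD32 and 593 and 679.7 in CD64 (2.59-fold lower). Of that list 9 of 34 were lower and 3 higher (26.5% and 8.82%, against 9.39% and 12.4% of all genes). Fewer were called in both directions without the first CD32 array or either CD64 array. Among other myeloid receptors CX3CR1, the fractalkine receptor, was higher in CD64 (582 and 656 against 302 and 242, 2.28-fold), as was the activating receptor CLEC5A (0.69, not called without the second CD64 array), while the urokinase receptor PLAUR was lower (-0.78).

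Cholesterol synthesis genes, which the transcription factor SREBP2 controls, were lower in CD64 in 10 of 18 and higher in 0. These shares were 55.6% and 0%, against 9.39% and 12.4% of all genes, with the count of 10 under each of the 4 scalings. The list's median was -0.83 against 0.08 for all genes, and 8 were lower without each single array. HMGCS1, the synthase at the entry of the pathway, read 1347 and 1350 in CD32 and 359 and 233 in CD64 (4.67-fold lower, -2.22 ± 0.217, adjusted p = 7.45e-05). IDI1, which isomerises the isoprene unit, read 6314 and 6738 in CD32 and 1756 and 1356 in CD64 (4.23-fold, adjusted p = 3.16e-06), and SQLE, the squalene oxidising enzyme, 6109.5 and 5967 in CD32 and 1971 and 1907 in CD64 (3.11-fold, adjusted p = 2.41e-06). In all 3 genes the control arrays, at 602 and 592 for HMGCS1, 3301 and 3886 for IDI1 and 3404 and 3114 for SQLE, lay between the receptors. In the list of lipid efflux, storage and scavenging 4 of 24 genes were higher and 4 lower (16.7% each, against 12.4% and 9.39% of all genes). FASN, the fatty acid synthase, read 1003 and 1332 in CD32 and 177 and 218 in CD64 (5.89-fold lower, adjusted p = 2.77e-05), and the desaturase FADS2 1135 and 1187 in CD32 and 383 and 467 in CD64 (2.74-fold). ACSL1, which activates fatty acids, was higher in CD64, at 2979 and 3061 against 1165 and 1553 (2.24-fold, adjusted p = 0.000175), and a further probe set of the gene was higher by 0.52.

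Glycolysis genes were lower in CD64 in 12 of 23 and higher in 1 (52.2% and 4.35%, against 9.39% and 12.4% of all genes). After quantile and loess normalization 9 and 10 were lower. PKM, the pyruvate kinase, read 15584 and 13519 on the CD32 arrays and 2379.8 and 2657 on the CD64 arrays, a 5.77-fold lower signal (-2.53 ± 0.1, adjusted p = 2.79e-07) that held at -2.27 after quantile normalization. The neuronal-type glucose transporter SLC2A3 read 1509 and 1921 in CD32 and 588 and 515 in CD64 (3.09-fold lower). HK3, a hexokinase of myeloid cells, read 134 and 210 in CD32 and 81.2 and 34.5 in CD64, with 1 CD64 array under the floor, and its call was lost without the second array of either receptor. Many enzymes of this list are among the brightest genes, where the scalings differ: ENO1, an enolase, was at -0.78 as deposited and 0.05 after quantile normalization (adjusted p = 0.74). NDRG1, a hypoxia-inducible gene, read 7130.1 and 6929 in CD32 and 2286 and 2470.1 in CD64 (2.96-fold lower, adjusted p = 4.52e-06). Of 17 hypoxia-inducible genes other than glycolysis 2 were lower and 1 higher (11.8% and 5.88%), against 9.39% and 12.4% of all genes. HIF1A itself was higher (0.40 ± 0.0978, adjusted p = 0.0147), a call lost after median centring and when any of 3 arrays was left out. ENO1 was picked out after its values were seen.

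Subunits of oxidative phosphorylation were higher in CD64 in 13 of 47 and lower in 6 (27.7% and 12.8%, against 12.4% and 9.39% of all genes). The counts were 13 and 1 after quantile, 15 and 1 after loess, but 6 and 10 after median centring. Complex I subunits led: NDUFA5 read 322 and 361 in CD32 and 1006 and 742 in CD64 (2.53-fold, adjusted p = 0.000838) and NDUFB7 129.9 and 157 in CD32 and 367 and 324 in CD64 (2.42-fold). Without the second CD64 array 7 were higher and 2 lower, without the first 8 and 3, and without the first CD32 array 9 and 3.

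Among cell cycle genes, several of DNA replication were higher in CD64. Of 18 G1 cyclins and their partners 3 were higher and 0 lower (16.7% and 0%), near the 12.4% and 9.39% of all genes. Only 1 of them was higher under each other scaling. CCNE2, the cyclin that drives S phase entry, read 183 and 237 in CD32 and 830 and 713 in CD64 (3.7-fold, 1.89 ± 0.206, adjusted p = 0.000128). Of 44 DNA replication genes 13 were higher and 3 lower (29.5% and 6.82%, against 12.4% and 9.39% of all genes). The counts were 10 and 3 after quantile, 12 and 3 after loess and 6 and 4 after median scaling. POLE2, a subunit of the leading strand polymerase, read 302 and 312 in CD32 and 736 and 692 in CD64 (2.32-fold, adjusted p = 0.00021), and the clamp loader subunit RFC5 156 and 283 in CD32 and 493 and 528 in CD64 (2.43-fold, adjusted p = 0.00434). POLA2, at 136 and 36.8 in CD32 and 215 and 218 in CD64, had 1 CD32 array at the floor, and its call (adjusted p = 0.0427) was lost under each other scaling and when any of 3 arrays was left out. Without the first CD64 array 6 were higher and 0 lower, without the second 7 and 1. Of 42 mitotic genes 5 were higher and 5 lower (11.9% each), shares near the 12.4% and 9.39% of all genes, and 1 and 2 without the first CD64 array; the survivin gene BIRC5 was higher (0.79 ± 0.159), a call lost without that array (adjusted p = 0.0512). The inhibitors of cyclin-dependent kinases went opposite ways. CDKN1A (p21) read 1089.6 and 1132 in CD32 and 284 and 309 in CD64 (3.75-fold lower, adjusted p = 0.000227), and CDKN1B (p27) 890 and 1162 in CD32 and 1675 and 1751 in CD64 (1.68-fold higher, adjusted p = 0.00174).

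Cytoplasmic ribosomal protein genes were lower in CD64 in 38 of 47 as deposited and higher in 2 (80.9% and 4.26%, against 9.39% and 12.4% of all genes). However, 3 were lower and 8 higher after quantile and 23 and 1 after loess normalization. The list's median went from -0.74 to 0.08 and -0.28. RPS10, a small subunit protein, read 36978 and 37995 on the CD32 arrays and 14536 and 15801 on the CD64 arrays, and its difference was -1.31 as deposited, -0.04 after quantile and -0.64 after loess normalization. These genes fill the bright end of the arrays, where the maxima of the groups differed, and the part of that difference was not tested. The elongation factor EEF1A1 moved the same way (-1.23, -0.19 and -0.65). Among less bright translation factors EIF2S3, the gamma subunit of eIF2, read 632 and 687 in CD32 and 1394 and 1513 in CD64 (2.2-fold higher, adjusted p = 9e-05), and it was called under quantile and loess normalization too.

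Stress and turnover genes divided within their lists. Of 33 proteasome subunits 10 were higher in CD64 and 3 lower (30.3% and 9.09%), at modest size, with PSMD9 at 0.78 ± 0.152 and PSMA7 at 0.72 ± 0.146; after median centring 5 and 3 were called, and without each single array 6 to 8 were higher and 0 or 1 lower. HSP90AA1, the inducible HSP90 chaperone, read 1787 and 1972 in CD32 and 4858 and 5084 in CD64 (2.65-fold higher, adjusted p = 4.53e-06). The constitutive HSP90AB1 was lower, at 6017 and 6699 against 16037 and 11767 (2.16-fold, adjusted p = 0.000287). Its log2 difference was -1.11 as deposited, -0.65 after quantile and -0.72 after loess normalization, and a further probe set was lower by -0.56. The control arrays read 6579 and 6956 for HSP90AA1 and 10293 and 11655 for HSP90AB1. Among targets of ATF4, the factor of amino acid stress, the serine synthesis enzyme PSAT1 read 751 and 805 in CD32 and 1681 and 1839 in CD64 (2.26-fold higher), and ATF3, a repressor of inflammatory genes, 844 and 728 in CD32 and 294 and 303 in CD64 (2.63-fold lower). HMOX1, which degrades haem, was higher in CD64, with 215 and 234 in CD32 and 476 and 625 in CD64 (2.43-fold, adjusted p = 0.00153). Of 34 BCL2 family, caspase and IAP genes 7 were higher and 3 lower (20.6% and 8.82%, against 12.4% and 9.39% of all genes). Fewer were called in both directions without each single array. DIABLO, a mitochondrial antagonist of IAP proteins, read 647 and 602 in CD32 and 1221 and 1321 in CD64 (2.04-fold higher). The splicing list had 9 of 57 higher and 14 lower (15.8% and 24.6%, against 12.4% and 9.39% of all genes). Without each single array these counts too fell in both directions. SF1, the branch point binding protein, read 2238 and 2100 in CD32 and 725 and 812 in CD64 (2.83-fold lower, adjusted p = 1.06e-05). Primary granule genes had 7 of 17 lower and 0 higher (41.2% and 0%, against 9.39% and 12.4% of all genes). After quantile and loess normalization 4 and 3 were lower, and fewer than 7 were lower without each single array. The azurocidin gene AZU1 read 3279.8 and 2810 in CD32 and 1234 and 1545 in CD64 (2.2-fold lower).

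**Figure D4:**
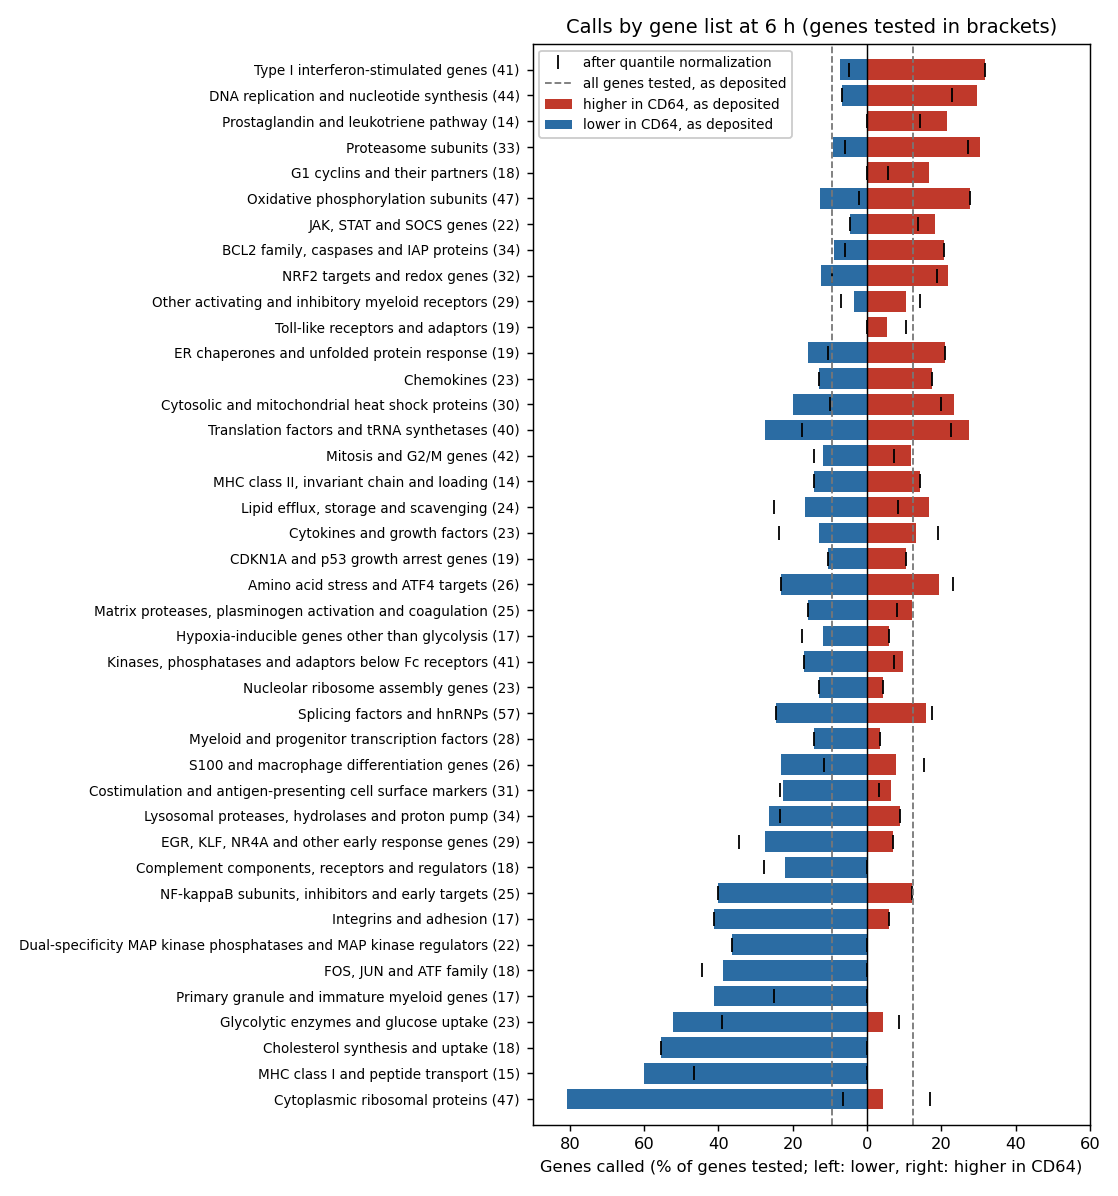
Bars give the share of each list's tested genes called higher (right) or lower (left) in CD64 at 6 h as deposited, ticks the same after quantile normalization, and dashed lines the shares over all genes tested, 12.4% and 9.39%; lists with 10 or more genes tested are shown. Cholesterol synthesis keeps its bar under quantile normalization, whereas the bar of ribosomal proteins, 80.9% lower as deposited, does not.

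The receptor difference at 6 h was then set against that at 2 h, from separate arrays. At 2 h 1234 genes were called (20%), 500 higher in CD64 and 734 lower (8.11% and 11.9%). Called at both times in the same direction were 402 genes, or 29.9% of the calls at 6 h and 32.6% of those at 2 h, and 129 genes were called in opposite directions. The difference itself changed between times for 892 genes (14.5%): it was more in favour of CD64 at 6 h for 553 (8.96%) and less for 339 (5.50%).

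Many interferon-stimulated genes were lower in CD64 at 2 h and no longer so at 6 h. At 2 h 28 of 41 were lower in CD64 and 3 higher, against 11.9% and 8.11% of all genes. At 6 h 13 were higher and 3 lower, against 12.4% and 9.39%. The change in the receptor difference was called upward in 23 and downward in 0, against 8.96% and 5.50% of all genes. These counts were 23 and 0 after quantile and loess normalization and 17 and 2 after median centring. IFIT1 read 499.9 and 417 in CD32 and 147 and 196 in CD64 at 2 h, against 459 and 546 in CD32 and 4416 and 3934 in CD64 at 6 h. In CD32 its signal was about the same at both times, and of the 4 cross-linked groups CD64 was the lowest at 2 h and the highest at 6 h. The change in the difference was 4.49 ± 0.242 (adjusted p = 4.6e-06). RIGI read 136 and 299.7 in CD32 and 97.2 and 79.1 in CD64 at 2 h and changed by 3.54, and IFIT5 171 and 120.1 in CD32 and 69.8 and 39.3 in CD64 and changed by 3.66. TNFAIP6 (351 and 413 in CD32 and 79.8 and 62 in CD64 at 2 h) and CX3CR1 (642 and 545 in CD32 and 89.4 and 121 in CD64) crossed in the same way, with changes of 4.0 and 3.70. CCL2, by contrast, was not called at 2 h (936 and 877 in CD32 and 802 and 779.5 in CD64, log2 -0.20), and its difference grew by 2.24.

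CXCL8, the neutrophil chemokine interleukin-8, ran opposite: at 2 h it read 247 and 262 in CD32 and 2347 and 2456 in CD64, a log2 difference of 3.24, and at 6 h 1013 and 952 in CD32 and 833 and 786 in CD64 (-0.28 ± 0.111, adjusted p = 0.0993), so that the difference changed by -3.52 (adjusted p = 1.86e-06). At 6 h it was called lower after quantile and loess normalization (-0.39 and -0.43). FOSB was dim and not called at 2 h (93.8 and 77.2 in CD32 and 82 and 63 in CD64), as was EGR1 (153 and 137 in CD32 and 137 and 218 in CD64); of the cross-linked arrays, those of CD32 at 6 h were the high ones for both. RGS1 behaved alike, with 62.8 and 72.1 in CD32 and 47 and 104 in CD64 at 2 h. HMGCS1 was higher in CD64 at 2 h (270 and 231 in CD32 and 536 and 412 in CD64) and lower at 6 h, a change of -3.14. In the cholesterol list the difference became less favourable to CD64 in 8 of 18 genes and more in 1, against 5.50% and 8.96% of all genes. Under the other scalings the counts were 7 to 9 and 0.

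Other differences were already present at 2 h. SPI1 read 313 and 349.9 in CD32 and 98.2 and 126 in CD64 at 2 h, and the change of -0.83 by 6 h was not called (adjusted p = 0.141). CD74 read 2608 and 2716 in CD32 and 799 and 888 in CD64 at 2 h, with a change of -0.18 (adjusted p = 0.477), and CDKN1A 323 and 461 in CD32 and 118 and 171 in CD64, with -0.47 (adjusted p = 0.402). MYC was higher in CD64 at both times (411 and 516 in CD32 and 1158 and 1347 in CD64 at 2 h). Oxidative phosphorylation genes were higher in CD64 in 25 of 47 and lower in 0 at 2 h, against 8.11% and 11.9% of all genes. Their change by 6 h was called downward in 8 and upward in 1, against 5.50% and 8.96% of all genes. After quantile normalization it was called downward in 1 and upward in 1. Of 44 DNA replication genes 13 were higher and 1 lower at 2 h. Their difference changed upward in 3 and downward in 4, and in 1 and 9 after median centring. Of 25 NF-kappaB genes 13 were lower and 1 higher at 2 h. This list changed as well, upward in 5 and downward in 3, against 8.96% and 5.50% of all genes. IER3 changed by -1.43, PTX3 by 2.32 and TNFAIP6 by 4.0, so similar counts at both times need not cover the same genes. Mitotic genes, of which 22 of 42 were higher in CD64 at 2 h and 1 lower, changed downward in 12 and upward in 0 by 6 h. The shares over all genes were 8.11% and 11.9% at 2 h and 5.50% and 8.96% for the change. Under quantile, loess and median scaling 11, 9 and 22 mitotic genes changed downward.

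**Figure D5:**
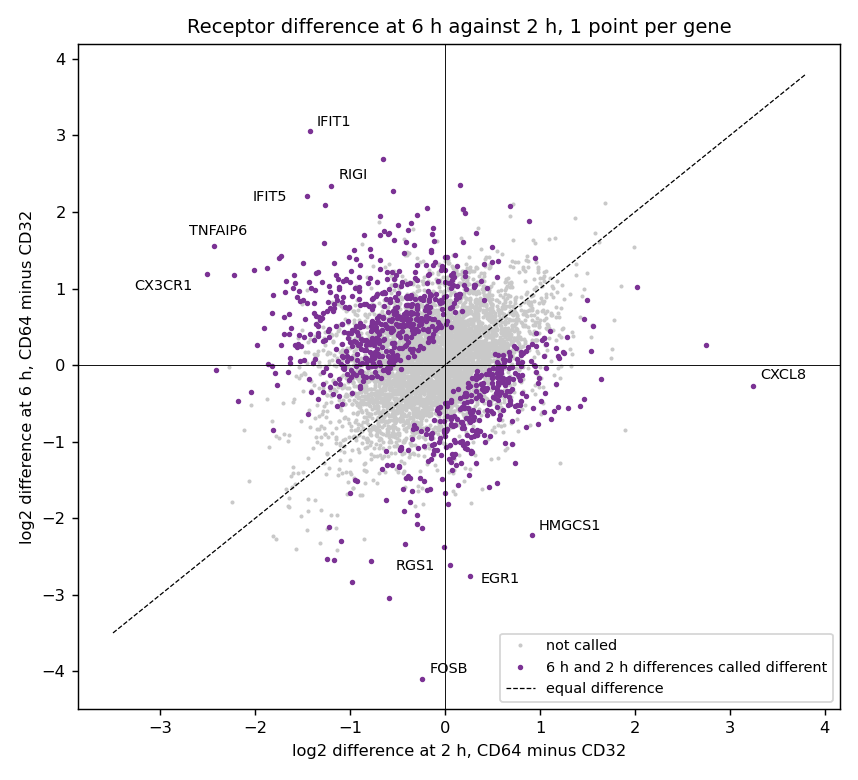
Each point is a gene, with the log2 difference between CD64 and CD32 at 2 h (horizontal axis) and at 6 h (vertical axis); coloured genes are those whose 2 differences were called different, and the dashed line marks equal differences. IFIT1, RIGI, IFIT5, TNFAIP6 and CX3CR1 lie at the upper left, lower in CD64 at 2 h and higher at 6 h, and CXCL8 lies far to the right, at 3.24 at 2 h and -0.28 at 6 h.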

How the data were processed

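RNA of U937 cells was measured on 10 one-colour oligonucleotide arrays in 5 groups of 2. The deposited values were linear signal intensities, 1 per probe set, which the authors had scaled to a common trimmed mean, as read from the values; the sources used here name no scaling software. Of 8793 probe sets, 47 control probe sets were left out, and gene symbols came from the platform annotation, with 7840 probe sets carrying 1 symbol, 388 several and 518 none.

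The 8 cross-linked arrays were fitted in 4 groups with limma 3.58.1 in R 4.3.3 (eBayes with a variance trend) on log2 of the signal, floored at 36.8. A probe set was tested when above the floor on at least 2 of the 4 arrays at 6 h (6962 probe sets), with Benjamini-Hochberg adjustment over all of them and a threshold of 0.05. A gene was represented by its probe set with the highest mean, and the fit was tested on simulated data. An at-least fold sets the bright group's mean against the floor. The number of arrays limits the precision, with 4 residual degrees of freedom.

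Named genes were the 12 highest and 12 lowest among calls shared by the deposited, quantile and loess scalings without overlap, up to 3 called genes from each of 53 lists, the Fc receptor genes, and the 5 highest and 5 lowest by change between 2 h and 6 h. The comparison, the lists and the tests were chosen with earlier results of these data known, and genes named outside the rule were chosen after their values were seen. Alternatives varied the scaling, floor, filter, arrays in the fit, variance model and replicate block, and left out each array at 6 h in turn. The main fit used no pairing of arrays by replicate number. Deviations of same-numbered arrays correlated at -0.063 to 0.288 over 6 pairs of groups. The value was 0.288 for CD64 at 2 h and 6 h, and 0.097 for CD32 and CD64 at 6 h.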

Additional observations from a re-analysis of the deposited data

Results flagged for a closer look

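For 75 of the 147 named genes the receptor difference itself differed between 2 h and 6 h, by limma's test of that change (adjusted p under 0.05). The values are the log2 difference between CD64 and CD32 at 6 h minus that at 2 h, from the signals as deposited. The change was not called after quantile or after loess normalization, or after both, for 18 of them, and 1 of those, the histone gene H2AZ1, turned sign. The others are RPS18, RPL30, RPS10, EEF1A1, NPM1, HSP90AB1, SRGN, MYB, H2BC12, FCGR2B, DIABLO, CDK2, FCGRT, CHI3L1, CCNE2, EIF4G1 and CAMKK2.

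The change was upward, in favour of CD64 at 6 h, by the most for IFIT1 (4.49), TNFAIP6 (4.0), CX3CR1 (3.70), IFIT5 (3.66), RIGI (3.54), IFIT3 (3.36), FFAR2 (3.34), TNFSF10 (3.15), CASP6 (2.82) and PSAT1 (2.77). Smaller upward changes were those of CCL7 (2.40), PTX3 (2.32), CCL2 (2.24), SOCS2 (2.21), CAMKK2 (2.19), CCL4 (1.90), PRPF4 (1.88), TPR (1.84), HLA-DRA (1.76) and EIF4G1 (1.73). Further genes that shifted toward CD64 were EIF2S3 (1.46), KIF5B (1.39), CYBA (1.03), CCNE2 (1.01), CHI3L1 (0.97), MYD88 (0.96), ACSL1 (0.96), MANF (0.96), FCGRT (0.80) and CDK2 (0.75). The remaining upward changes belonged to DIABLO (0.72), FCGR2B (0.71), ALOX5AP (0.60), H2BC12 (0.57) and HSP90AA1 (0.45).

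Toward CD32, the change was largest for FOSB (-3.85), CXCL8 (-3.52), HMGCS1 (-3.14), EGR1 (-3.01), RGS1 (-2.66), MEF2D (-2.45), HSPG2 (-2.37), DUSP1 (-2.08), PPP1R15A (-1.92) and FOSL1 (-1.89). Next in size were FKBP8 (-1.85), IDI1 (-1.78), FASN (-1.77), NDRG1 (-1.70), B2M (-1.61), JUNB (-1.47), NR4A2 (-1.45), RPS18 (-1.44), RPL30 (-1.44) and SLC2A3 (-1.43). Intermediate downward changes were those of IER3 (-1.43), RPS10 (-1.42), PRKCSH (-1.37), SQLE (-1.29), SPRY2 (-1.29), PKM (-1.28), EEF1A1 (-1.28), IRF1 (-1.24), NPM1 (-1.22) and ZYX (-1.20). The remaining downward changes belonged to PTPN6 (-1.08), FADS2 (-1.06), HSP90AB1 (-1.0), SRGN (-0.91), CD4 (-0.89), BHLHE40 (-0.81), MYB (-0.58), SF1 (-0.54), PLAUR (-0.45) and H2AZ1 (-0.42).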

How the results depend on the processing

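Of 1551 probe sets called at 6 h (878 higher and 673 lower in CD64), 971 were called without the variance trend (540 higher and 431 lower), and 582 were higher without a filter on low signals. Median centring left 480 higher and 832 lower, since it moved the median difference of all genes from 0.08 to -0.06. Leaving out 1 array gave 844 (without the first CD64 array) to 1140 calls (without the second CD32 array), with 1019 without the first CD32 array and 894 without the second CD64 array; 422 to 662 were higher and 422 to 478 lower. With the replicate number as a block 1574 were called (903 higher and 671 lower). Of 141 named genes called, 89 were called without each of the 4 arrays, 49 were lost without at least 1, and the remaining 3 (FKBP8, FOSB and MEF2D) were untested without either CD32 array because they passed no filter there. None of the 141 changed sign under any alternative run, though 42 of the 1551 probe sets did so after quantile and 10 after loess normalization. Between 22.3% and 25.9% of signals lay at or under the floor on these arrays, where differences are not measured.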
